A study of Mus musculus with 6 samples.

Results

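Cytosolic ribosomal proteins build both subunits of the ribosome that translates nuclear mRNAs. Their genes are transcribed together at high rates, and their mRNAs start with a run of pyrimidines, the terminal oligopyrimidine (TOP) tract, through which mTORC1 and the RNA-binding protein LARP1 control translation. ATF4, a bZIP transcription factor made when eIF2 is phosphorylated, raises genes of amino acid supply at a time when that phosphorylation slows translation. Much of the control of ribosomal protein output acts on translation, which levels of mRNA do not show.

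The genes described here are the rows of the deposited table with exactly 1 gene symbol that begins with Rpl, Rps or Rplp and a digit, plus Rpsa. S6 kinase genes (Rps6k) and named pseudogenes (-ps) were left out. The rule found 22 genes, each on 1 row, among 16700 rows, of which 14988 carried 1 symbol. By what they encode, 9 are core proteins of the large subunit and 7 core proteins of the small subunit. A further 5 are relatives of a core gene (Rpl3l, Rpl7l1, Rpl39l, Rps27l and Rps4l). Rps19bp1 encodes a protein that binds RPS19 and is not part of the ribosome. Another 24 symbols that the rule describes stood only on rows with several symbols, among them Rpl5 and Rps6, so most of the ribosome is not covered by rows of its own. Rpl11, Fau and Rack1 had no row of their own either.

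The samples were C2C12 myotubes, the multinucleate muscle cells that form when this mouse myoblast line differentiates. In the ATF4 group (3 samples) an adenovirus expressed eGFP together with FLAG-tagged ATF4. In the control group (3 samples) the adenovirus expressed eGFP together with FLAG-tagged ATF4∆bZIP, which lacks the DNA-binding domain and is transcriptionally inactive. Both groups therefore carried virus, eGFP and a FLAG-tagged ATF4 protein. RNA was taken 48 hours after infection, and no uninfected sample was analysed here. Each sample was measured on 1 Affymetrix mouse exon array as values taken to be on the log2 scale. The labels number the samples 1 to 3 in each group and name no separate cultures. The p-values therefore reflect sample-to-sample spread that could be technical.

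Arrays of the same sample number deviated together, so differences were also taken within sample numbers. Both number 3 arrays had a narrower range, with a 90th percentile of 7.91 on the ATF4 and 7.75 on the control array, against 8.19 to 8.21 on the other 4. Of 12 myotube markers 9 had a row, with values from 6.06 to 11.74 on the log2 scale. The 4 macrophage markers had values from 3.94 to 6.33. Of them 0 of 4 were called with or without the sample number as a block, where 3.56% and 0.593% of all rows were. Among them Ptprc, which marks leukocytes, was higher with ATF4 in 3 of 3 sample numbers (4.87, 5.16 and 4.79 in ATF4 arrays, against 3.94, 4.18 and 4.45 in control arrays; limma adjusted p = 0.222, blocked 0.0568). Cd68 was lower in 3 of 3 by a mean difference of -0.35 (limma adjusted p = 1, blocked 0.112). Csf1r and Adgre1, the rest of this list, differed by 0.0043 and -0.0042. The part of these markers in the results was not tested. Array values of different rows depend on their probes, so no gene's level is set against another's.

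None of the 22 genes rose or fell past the threshold in myotubes with ATF4. By the limma test over all rows (adjusted p below 0.05), 0 of 22 were called, where 99 of 16700 rows were called (0.593%). With the sample number as a block (the values called blocked from here on), 0 of 22 were called, where 594 rows were called (3.56%). Of the 22 genes, 15 had a lower and 7 a higher mean in ATF4 arrays, and over all rows 58.3% had a lower mean. The median difference, ATF4 minus control, was -0.20 on the log2 scale, against -0.03 over all rows. Single differences ran from -0.42 (Rps18) to 0.15 (Rpl10a), which is 0.750 to 1.11 times the control level.

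**Figure D1:**
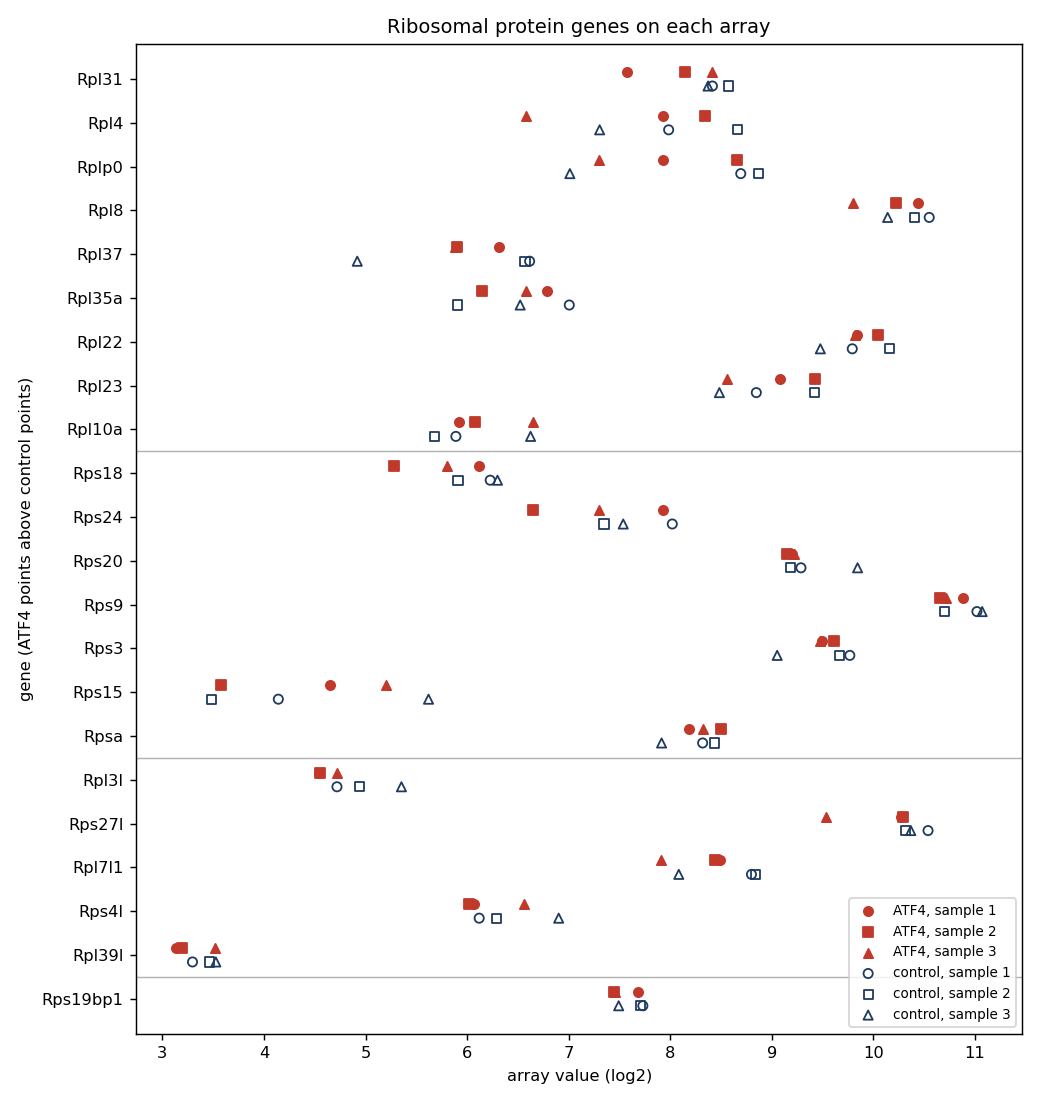
Array values (log2) of the 22 genes, with ATF4 arrays as filled points above control arrays as open points and a marker shape for each sample number; horizontal lines separate large subunit, small subunit, relatives of core genes and Rps19bp1. In 20 genes the groups overlap; all ATF4 points lie below all control points in Rpl3l and Rps27l.

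The arrays limited how large a change could have gone unseen. The 95% interval of the difference lay within a 2-fold change in either direction for 18 of the 22 genes, and within a 1.5-fold change for 5. Of all 16700 rows, 15534 and 8093 had intervals within these limits. The pooled SD within groups had a median of 0.32 over the 22 genes, against 0.25 over all rows. The 22 genes were thus measured less precisely than a typical row. Wider intervals belonged to Rpl4, Rps24, Rplp0 and Rps15. The smallest difference that was called in any row was 0.93 without the block and 0.44 with it, so each of the 22 differences was smaller than any that was called. Differences were below the pooled SD within groups in 17 of the 22 genes and in 13131 of all 16700 rows, which are similar shares.

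**Figure D2:**
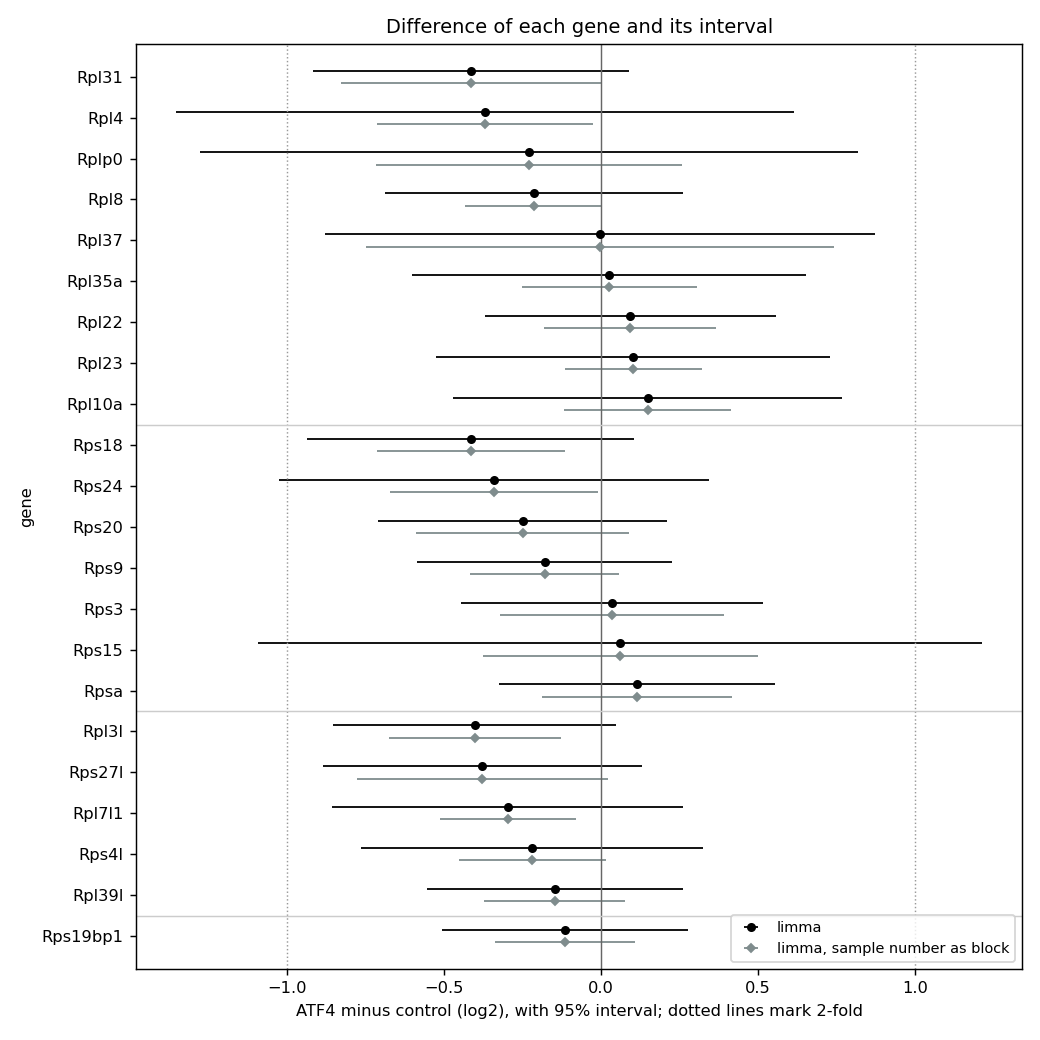
Difference of each gene, ATF4 minus control (log2), with its 95% interval from limma (black) and from limma with the sample number as a block (grey). All black intervals include 0; with the block those of Rpl4, Rps18, Rps24, Rpl3l and Rpl7l1 lie below 0, and 0 genes pass after adjustment over all rows.

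The large subunit core genes were split, with 5 lower and 4 higher means and a median difference of -0.0036 on the log2 scale. Rpl4, whose protein lines the tunnel through which the new peptide leaves, had 7.92, 8.34 and 6.58 in ATF4 samples 1 to 3, against 7.98, 8.66 and 7.30 in control samples 1 to 3. Each ATF4 array was below the control array of its number, although the groups overlapped widely and both number 3 arrays were low. Its difference of -0.37 (SE 0.44) had a limma adjusted p of 1, and 0.25 blocked.

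Rplp0, which anchors the stalk that recruits translation factors, had 7.92, 8.66 and 7.30 in ATF4 arrays, against 8.69, 8.87 and 7.01 in control arrays. Sample number 3 went the other way from numbers 1 and 2, and the difference was -0.23 with an interval of -1.28 to 0.82. Its stalk partners Rplp1 and Rplp2 had no row of their own. Rpl8, a protein next to the peptidyl transferase centre, had 10.43, 10.22 and 9.80 in ATF4 arrays, against 10.55, 10.41 and 10.14 in control arrays. It was lower in 3 of 3 sample numbers, with a difference of -0.21 (SE 0.21, blocked adjusted p = 0.286 and unblocked 1 by limma).

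The row named Rpl31 had 7.58, 8.14 and 8.41 in ATF4 arrays, against 8.41, 8.58 and 8.37 in control arrays, a difference of -0.41 (standard error 0.23, limma adjusted p = 1). The gap lay in sample numbers 1 and 2, while number 3 differed by 0.04. This row may not be Rpl31. The rows just before and after it in number order, 18 of 18 with a placed gene, carry genes of chromosome 7, while RefSeq places Rpl31 on chromosome 1. The same holds for Rps24, whose 20 neighbours carry genes of chromosome 13 while the gene is on chromosome 14. Of the 22 rows these were the 2 whose neighbours lay on another chromosome, and both were among the 6 lowest differences. Without them the median of the 14 remaining core genes was 0.01, with 7 lower and 7 higher means.

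Among large subunit genes with a higher mean, Rpl10a had 5.92, 6.07 and 6.64 in ATF4 arrays, against 5.89, 5.68 and 6.62 in control arrays. Rpl23, which lies between the subunits and can bind Mdm2, had 9.08, 9.42 and 8.56 in ATF4 arrays, against 8.85, 9.42 and 8.48 in control arrays. These were the 2 genes that were higher within all 3 sample numbers (17.0% of all rows were), in Rpl23 by as little as 0.0008 in number 2. Under the 4 rescalings 0 to 2 genes were. Their differences were 0.15 and 0.10, with limma adjusted p of 1 for both. Rpl22, an RNA-binding protein of the large subunit, differed by 0.09 (0.05, -0.11 and 0.34 within sample numbers 1 to 3). Rpl35a, whose human gene is mutated in Diamond-Blackfan anaemia, differed by 0.03 (-0.22, 0.25 and 0.05). Rpl37, a zinc-binding protein, had 6.32, 5.90 and 5.88 in ATF4 arrays, against 6.62, 6.57 and 4.92 in control arrays. One control array, number 3, set its mean difference of -0.0036: within sample numbers the difference was -0.30, -0.67 and 0.96, the mean difference was above 0 under all 4 rescalings, and without that array it was -0.56 (limma adjusted p = 0.340).

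In the small subunit, 4 core genes had a lower and 3 a higher mean, with a median difference of -0.18. Rps18, a protein of the small subunit head, had 6.12, 5.28 and 5.8 in ATF4 arrays, against 6.23, 5.91 and 6.30 in control arrays. It was lower in 3 of 3 sample numbers, with the groups overlapping, and its difference of -0.42 was the lowest of the 22 (SE 0.23, blocked adjusted p = 0.155 and unblocked 1 by limma). The row named Rps24 had 7.93, 6.65 and 7.30 in ATF4 arrays, against 8.02, 7.35 and 7.54 in control arrays, a difference of -0.34 (SE 0.31, blocked adjusted p = 0.268 and unblocked 1 by limma).

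Rps20 had 9.20, 9.15 and 9.21 in ATF4 arrays, against 9.29, 9.18 and 9.84 in control arrays. Control array 3 stood apart from the other 5 arrays, and the difference was -0.25 (limma adjusted p = 1). Rps9, a protein at the mRNA entry channel, had 10.88, 10.66 and 10.71 in ATF4 arrays, against 11.02, 10.70 and 11.07 in control arrays. It was lower in 3 of 3 sample numbers by 0.04 to 0.36. Rps3, its neighbour in the entry channel, differed by 0.03 (-0.27, -0.05 and 0.42 within sample numbers 1 to 3), a sign that turned under 3 of the 4 rescalings. Rpsa, also known as the laminin receptor, differed by 0.11 (-0.13, 0.07 and 0.41), and groups overlapped in both genes.

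Rps15, a protein of the small subunit head near the decoding site, showed how far sample numbers could carry a gene. It had 4.65, 3.58 and 5.20 in ATF4 arrays, against 4.14, 3.48 and 5.62 in control arrays. Both number 2 arrays were the lowest and both number 3 arrays the highest, and its pooled SD of 0.97 was the largest of the 22. The difference was 0.06 with an interval of -1.09 to 1.21, narrowed to -0.38 to 0.50 by the block.

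The 5 relatives of core genes all averaged lower with ATF4, where 58.3% of all rows did. Their median difference was -0.30, against -0.09 for the 16 core genes. With 1 array left out it was -0.38 to -0.23, against -0.16 (without ATF4 array 1) to -0.03 (without ATF4 array 3) for the core genes. Without control array 3, 4 of 5 relatives and 13 of 16 core genes averaged lower. None passed, and the gap between these medians was not tested. Of the relatives, Rpl39l lay at percentile 2.9 to 4.6 of all rows on the arrays and Rpl3l at 17.9 to 29.7. Without rows below the 25th percentile 3 relatives and 15 core genes remained, with medians of -0.30 and -0.18. Each of the 5 was lower in 3 of 3 sample numbers, where 24.5% of all rows were. Under the 4 rescalings of the arrays 5, 5, 4 and 5 of them kept a lower mean, the exception being Rpl39l with scaling to one interquartile range. Under these rescalings 3 or 4 relatives were lower in all sample numbers, where 17.4% to 22.8% of all rows were.

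Rpl3l, the paralog of Rpl3 made in heart and skeletal muscle, had 4.54, 4.55 and 4.72 in ATF4 arrays, against 4.72, 4.94 and 5.35 in control arrays. No ATF4 array reached a control array, although the nearest were 4.717 and 4.718. The difference was -0.40 with an interval of -0.85 to 0.05 (limma adjusted p = 1, blocked 0.136). Rpl3 itself had no row of its own, nor had Rpl7, Rpl39, Rps27 or Rps4x, the core partners of the other relatives.

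Rps27l, a relative of Rps27 that p53 induces in human cells, had 10.27, 10.29 and 9.53 in ATF4 arrays, against 10.54, 10.32 and 10.37 in control arrays. Its groups did not overlap either, with ATF4 array 3 lower than the other 5 arrays. The difference was -0.38 with an interval of -0.89 to 0.13 (limma adjusted p = 1, blocked 0.302). Groups lay apart with ATF4 lower in 2 of the 22 genes, and in 4.62% of all rows. Rpl3l stayed apart under all 4 rescalings and Rps27l under quantile normalization alone.

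Rpl7l1, a homolog of Rpl7, had 8.49, 8.44 and 7.91 in ATF4 arrays, against 8.80, 8.84 and 8.08 in control arrays. It was lower by 0.18 to 0.40 within sample numbers, and its difference was -0.30 (limma adjusted p = 1, blocked 0.16). Rps4l, which RefSeq lists as a transcribed pseudogene, had 6.07, 6.02 and 6.56 in ATF4 arrays, against 6.12, 6.29 and 6.90 in control arrays. Both number 3 arrays were the highest of their group, and the difference was -0.22 (limma adjusted p = 1). Rpl39l, the paralog of Rpl39 known from male germ cells, was at 3.14, 3.19 and 3.52 in ATF4 arrays, against 3.30, 3.46 and 3.53 in control arrays. Rps19bp1 differed by -0.11, had the smallest pooled SD of the 22 (0.13) and was lower in 3 of 3 sample numbers.

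Within sample numbers, 12 of the 22 genes (54.5%) were lower with ATF4 in all 3, where 24.5% of all rows were. Under the 4 rescalings the count was 8 to 11 genes, against 17.4% to 22.8% of rows. These 12 were 6 core genes (Rpl4, Rpl8, Rps9, Rps18, Rps20 and Rps24), the 5 relatives and Rps19bp1. The median difference was -0.12, -0.20 and -0.10 in sample numbers 1, 2 and 3. At an unadjusted limma p below 0.05, 0 of 22 genes passed without the block, where 5.26% of rows did. With the block 5 of 22 did (Rpl3l, Rpl4, Rpl7l1, Rps18 and Rps24), all lower, where 17.7% of rows did.

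Myotube markers averaged lower in ATF4 arrays in 9 of 9 rows, with a median difference of -0.27. Of the 9, 0 were called without the block (0.593% of all rows were) and 1 with it (3.56% of all rows were), the fast troponin C gene Tnnc2 (difference -0.48, blocked limma adjusted p = 0.0397). Their summed linear signal was 5665 to 9110 in ATF4 arrays and 7087 to 11219 in control arrays. These ranges overlap, and the sums rest mostly on the brightest rows. Fibroblast markers averaged higher in 4 of 4 rows (summed signal 160 to 174 in ATF4 arrays and 133 to 154 in control arrays). Fibroblast values ran from 3.73 to 6.47 on the log2 scale, and 0 of 4 were called with or without the block. Of 4 myoblast markers 2 averaged higher and 2 lower, with a median difference of 0.0028, and 0 were called with or without the block. The part of these markers in the ribosomal protein differences was not tested. In these bulk samples fewer cells of a type and less RNA per cell cannot be told apart.

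Values of the ribosomal protein genes moved together by sample number. Across the 22 genes, the deviations of an ATF4 array and a control array from their group means correlated by 0.491, 0.843 and 0.762 for arrays of numbers 1, 2 and 3, while pairs of arrays with unlike numbers gave -0.743 to 0.129. These are descriptions over 22 genes that share the arrays, and deviations within a group sum to 0. Control array 3 was below the mean of the other control arrays in 13 of the 22 genes, by a median of 0.14, and in the brightest 10% of all rows by a median of 0.46. ATF4 array 3 was below in 12 genes, by a median of 0.04, against 0.27 in the brightest 10%.

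**Figure D3:**
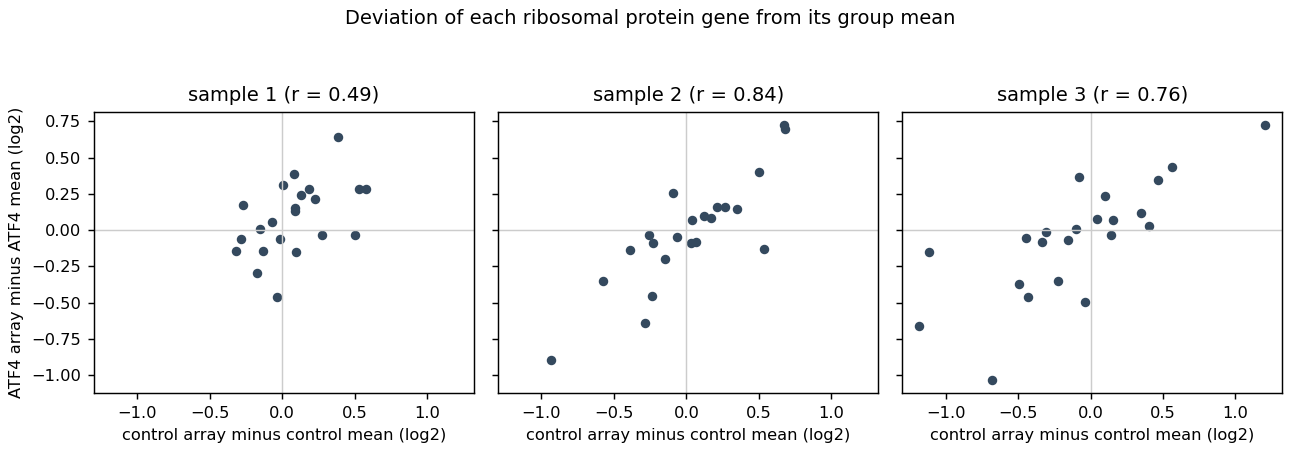
Deviation of each of the 22 genes from its group mean on the ATF4 array (vertical axis, log2) and the control array (horizontal axis, log2) of the same sample number, 1 point a gene. Points run from lower left to upper right in each panel, with r of 0.49, 0.84 and 0.76.

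Promoter sequences from RefSeq (build GRCm38.p6, 250 bases before to 50 after each listed start) were found for 19 of the 22 genes. A run of at least 8 pyrimidines (C or T) on the coding strand, from 50 bases before to 30 after a listed start, was found in 10 of the 19 (52.6%), against 33.6% of all 27025 genes with a promoter. A start at C followed by at least 4 pyrimidines, the letter pattern of a TOP mRNA, was listed for Rps18 and Rpl35a, 2 of 19 (10.5%) against 3.0% of all genes. RefSeq starts may lie some bases from those used in the cell, so a missing match says only that the letters are not there. The letters TGATGNAA, the core of sites bound by ATF4 with C/EBP partners, were on either strand in 0 of 19 promoters and in 4.5% of all. Starts of 6 genes are printed, chosen because the first 4 are core genes with a long run and the last 2 are relatives without one. Each runs from 40 bases before to 20 from the listed start, 5′ to 3′ on the coding strand, with the longest pyrimidine run in capitals.
Rps18, chr17:33955646-33955705, minus strand: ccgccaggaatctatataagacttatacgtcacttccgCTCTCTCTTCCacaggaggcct
Rpl35a, chr16:33056442-33056501, plus strand: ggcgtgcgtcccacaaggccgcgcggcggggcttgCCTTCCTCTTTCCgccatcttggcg
Rps9, chr7:3704001-3704060, plus strand: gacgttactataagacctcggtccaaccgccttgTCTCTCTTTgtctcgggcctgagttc
Rpl4, chr9:64173347-64173406, plus strand: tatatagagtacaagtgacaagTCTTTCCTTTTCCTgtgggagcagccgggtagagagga
Rpl7l1, chr17:46782637-46782696, minus strand: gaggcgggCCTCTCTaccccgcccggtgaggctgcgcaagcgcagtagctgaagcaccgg
Rpl3l, chr17:24727786-24727845, plus strand: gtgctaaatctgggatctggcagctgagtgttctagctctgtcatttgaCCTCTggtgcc
Rps18 and Rpl35a, which share the start pattern, had differences of -0.42 and 0.03. Rpl3l and Rpl7l1, with shorter runs of 5 and 7, had -0.40 and -0.30. Rps27l and Rpl39l, relatives with a run of 9 at a listed start, had -0.38 and -0.15. The printed genes do not stand for their groups: a run of at least 8 was found in 8 of 14 core genes with a promoter.

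Rows that a ribosomal protein symbol shares with other symbols gave a wider view, though none can be assigned to 1 gene. Of 33 such rows, 16 shared it with pseudogenes or clone names and 17 with another named gene. Their median differences were -0.02 and 0.02 on the log2 scale. Of the 33, 1 was called with or without the block, where 3.56% and 0.593% of all rows were. It was the row shared by Cth and Rpl32l, higher in ATF4 arrays (8.86, 9.08 and 8.70, against 5.36, 5.34 and 5.56 in control arrays). Cth encodes an enzyme of cysteine synthesis. The next largest difference, 0.74, belonged to a row of Rrm2b, Rpl23a and 4 clone names (limma adjusted p = 0.406, blocked 0.0792). The other rows ran from -0.42, in the row of Rps19 and its pseudogene Rps19-ps2, to 0.28. The symbol Rpl31 also stood on 2 of the 33 rows, with differences of 0.13 and -0.02, and the symbols Rpl10a and Rpl35a on 1 each, with 0.15 and -0.04. The row shared by Rpl31 and its pseudogenes alone was at 3.88, 3.69 and 3.30 in ATF4 arrays, against 3.51, 3.78 and 3.18 in control arrays.

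**Figure D4:**
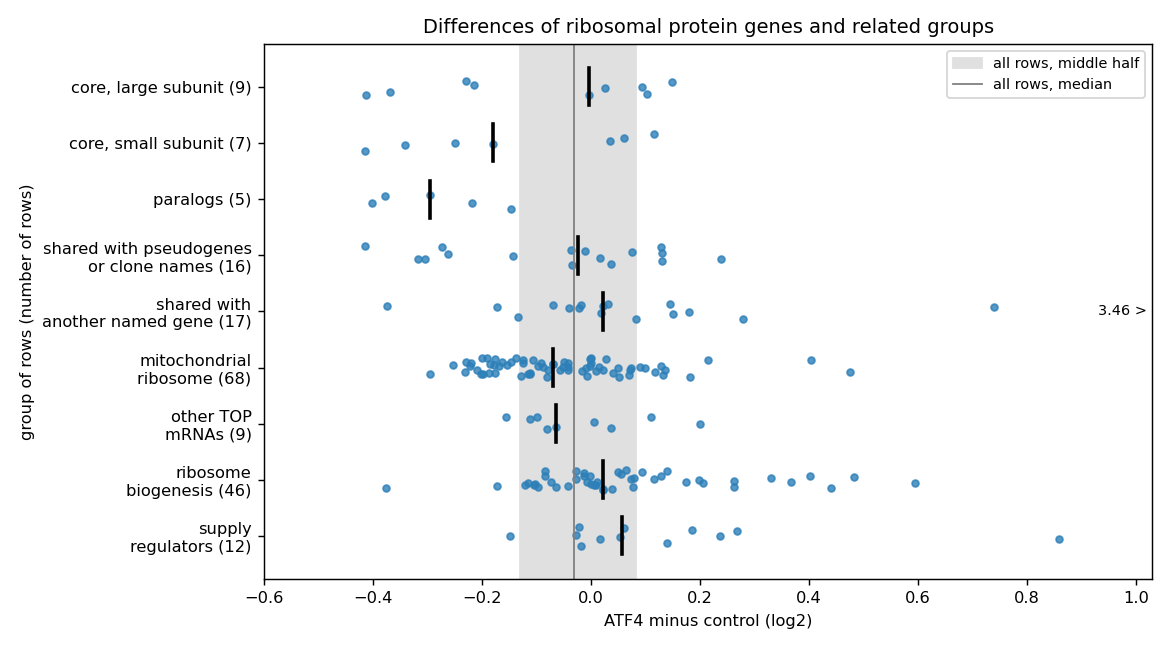
Differences, ATF4 minus control (log2), of single rows in each group of genes, with black bars at the group medians and, over all rows, the median (grey line) and interquartile range (grey band). All but 1 of the points lie between -0.42 and 0.86, and the row of Cth and Rpl32l is written at the edge with its value of 3.46.

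Genes related to the translation machinery were described from lists. Other TOP mRNAs, measured for 9 of 14 listed genes, had a median difference of -0.06. Most of the measured ones encode translation factors, while Nap1l1 does not. Of the 9, 0 were called with or without the block, where 3.56% and 0.593% of all rows were. Eef1b2, an exchange factor subunit for eEF1A, had 11.05, 11.08 and 10.92 in ATF4 arrays, against 11.19, 11.26 and 10.94 in control arrays (limma adjusted p = 1). Eif4b, a helicase cofactor, differed by -0.16 (limma adjusted p = 1). Its row was low, with a mean of 3.93 in ATF4 arrays and 4.09 in control arrays. The 25th percentile of all rows was 4.76 to 5.18 on the arrays. Whether the rows around it carry genes of the same chromosome as Eif4b was not tested, so the row is named by its annotation only. Eef2, the translocation factor, differed by 0.11 and the poly(A)-binding protein gene Pabpc1 by -0.10.

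Ribosome biogenesis factors, which process rRNA and assemble subunits, were measured for 46 of 55 listed genes. The list median was 0.02. Of the 46, 0 were called without the block, where 0.593% of all rows were. With the block 2 of 46 were called, both higher, where 3.56% of all rows were, so the share lies near that of all rows. The nucleolar RNA helicase gene Ddx21 had 8.74, 8.45 and 7.85 in ATF4 arrays, against 8.17, 7.82 and 7.27 in control arrays. It was higher in each sample number by 0.57 to 0.63, while the groups overlapped (limma adjusted p = 1, blocked 0.0207). Noc3l, an assembly factor of the large subunit, had 7.44, 7.18 and 6.66 in ATF4 arrays, against 6.88, 6.81 and 6.14 in control arrays (limma adjusted p = 1, blocked 0.0463).

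Regulators of ribosome supply were measured for 12 of 14 listed genes, with 0 called without the block (0.593% of all rows were) and 1 of 12 with it (3.56% of all rows were). Rheb, the small GTPase that activates mTORC1, had 9.89, 10.01 and 9.40 in ATF4 arrays, against 9.10, 9.19 and 8.44 in control arrays. No ATF4 array overlapped a control array, and the difference was 0.86 (SE 0.25, blocked adjusted p = 0.00992 and unblocked 0.295 by limma). Larp1, which represses TOP mRNAs, differed by 0.27 and Myc, which drives ribosome synthesis genes, by 0.18, each with a limma adjusted p of 1. Mtor itself differed by 0.02.

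Mitochondrial ribosomal protein genes, which build the separate ribosome of mitochondria, had 68 rows, of which 48 had a lower mean. Their median difference was -0.07 and 0 were called with or without the block, where 3.56% and 0.593% of all rows were. Mrpl14 had 9.19, 9.02 and 9.0 in ATF4 arrays, against 8.69, 8.39 and 8.69 in control arrays (limma adjusted p = 0.655, blocked 0.0638). Mrpl16 differed by 0.40 (limma adjusted p = 1, blocked 0.0886). No difference between the cytosolic and the mitochondrial genes was tested.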

How the data were processed

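Per the labels' protocols, cDNA was made from total RNA with NuGEN reagents, biotinylated and hybridised. The authors deposited 1 value per array for 16700 rows; GCOS, RMA and mm9 are named in the submitters' processing notes, with settings not given in the sources used here. Values as deposited by the authors are read as log2 from their range, with no detection calls. Rows were named from the platform annotation; all 22 gene numbers were found in a RefSeq table of another build (GRCm38.p6), used for chromosomes and promoters.

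Differences are ATF4 minus control fitted to unfiltered rows with lmFit and eBayes of limma 3.58.1 (R 4.3.3). Tests were two-sided, with p-values adjusted by Benjamini-Hochberg over all rows and a threshold of 0.05. Residual and prior degrees of freedom were 4 and 6.30, and 2 and 3.77 with the sample number as a block. Exact permutation of 3 against 3 arrays cannot go below 0.1. Deviations of same-numbered arrays from their group means correlated by 0.578, 0.636 and 0.782 over all rows, each above the limit of 0.1. On that ground the numbers in the titles were read as pairs. Arrays with unlike numbers gave -0.666 to 0.221. ATF4 array 1 with control array 2 (0.221) and ATF4 array 2 with control array 1 (0.168) also passed the limit, so it does not single out same-numbered arrays. The labels state no pairing, and the block was chosen from the values it was then fitted to.

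Members, lists and tests were chosen with earlier results of these data known. Named by rule were genes called in either fit, the 6 largest rises and falls, Rplp0, Rplp1, Rplp2, Rpsa, Rpl5, Rpl11, Rps6, relatives with their core partners, genes outside the ribosome that the symbol rule takes, the 3 rows of highest and of lowest mean, genes with several rows and, per list, called genes or the 2 of smallest p. Other genes were named after their values were seen. Alternatives covered scaling, filtering, the eBayes settings, array weights, the replicate block, left-out arrays and averaged rows. The fits were tested on simulated data.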

Additional observations from a re-analysis of the deposited data

How the results depend on the processing

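Among the 22 genes 0 passed the threshold under each of 18 alternatives, the lowest adjusted p being 0.0741 (Rpl7l1, cyclic loess with the replicate block). The sign of the difference held under every alternative in 10 genes, but its size moved by over 1.5 times with 1 array left out: Rps18 -0.61 to -0.19 (without ATF4 array 2), Rpl31 -0.60 to -0.18 (without ATF4 1), Rpl3l -0.55 to -0.23 (without control 3), Rps27l -0.51 to -0.13 (without ATF4 3), Rps24 -0.66 to -0.02 (without ATF4 2), Rpl7l1 -0.54 to -0.11 (without ATF4 3), Rps20 -0.38 to -0.05 (without control 3), Rpl8 -0.36 to -0.04 (without ATF4 3), Rps9 -0.29 to -0.11 (without control 3) and Rps19bp1 -0.19 to -0.07 (without control 1). The other 12 changed direction under some alternative, each with a difference below its standard error as reported and none called under any setting. With 1 array left out the log2 differences of all of them but Rpl39l ran across 0: Rpl4 -0.7326 to 0.1501, Rplp0 -0.8191 to 0.1094, Rpl10a -0.0684 to 0.4288, Rpl22 -0.0733 to 0.2673, Rpl23 -0.1143 to 0.3543, Rpl35a -0.2609 to 0.2905, Rpl37 -0.5618 to 0.2868, Rps3 -0.1871 to 0.1704, Rps15 -0.4043 to 0.6634, Rpsa -0.0391 to 0.2203 and Rps4l -0.3917 to 0.0128. Rpl37 turned to 0.0975 after quantile normalization, 0.039 after centring, 0.1526 after scaling to one interquartile range and 0.0331 with cyclic loess, with or without the block. Rps3 turned to -0.0241, -0.0175 and -0.0078 with quantile, scaling and cyclic loess (with or without the block). Rpl39l turned to 0.0085 with scaling. With array weights Rpl35a was -0.0769, Rps3 -0.1652 and Rpsa -0.0313, and without both number 3 arrays Rpl22 was -0.0312, Rps3 -0.1602 and Rpsa -0.0333. The causes were not tested. The median difference of the 22 genes was -0.19 to -0.10 with 1 array left out, and 4 to 8 genes had a higher mean (7 with all arrays), 4 with array weights and 4 without both number 3 arrays. The count of called rows was 99 (95 higher, 4 lower). It was 594 (400 and 194) with the replicate block, 616 (432 and 184) with cyclic loess and the block, 561 (357 and 204) with array weights, 151 (13 lower) with cyclic loess, 157 (34 lower) without both number 3 arrays and 57 (56 and 1) after centring, and 12 rows were lower after quantile normalization. With 1 array left out it was 38 to 243 (36 to 149 higher, 1 to 94 lower), lowest without ATF4 array 1 and highest without control array 3; the cause was not tested. Ribosome biogenesis had 2 genes called with the block and with cyclic loess and the block; supply regulators had 1 (Rheb) with each of these, with cyclic loess and with array weights. With 1 array left out, list medians ran from -0.0843 to 0.1379 (biogenesis), -0.1251 to 0.0257 (other TOP mRNAs), -0.0427 to 0.2082 (supply regulators) and -0.1354 to 0.0095 (mitochondrial ribosome). Under alternatives that did not leave out a single array, the list medians moved by less than 1 SD between sample numbers. Leaving out rows below the 25th percentile removed 3 of the 22 genes (Rpl3l, Rpl39l and Rps15). The number of arrays limits precision. Averaging several rows of a gene touched none of the 22, each of which has 1 row.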
